A study of Homo sapiens with 8 samples.

Results

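The brake genes of the G1 phase and their p53-linked partners were followed in MHCC-97H cells, a human hepatocellular carcinoma line, after exposure to lenvatinib, an inhibitor of VEGF, FGF and other receptor tyrosine kinases. The 9 genes, of 20263 in the table, were taken by symbol: the CDK inhibitors CDKN1A, CDKN1B, CDKN2A and CDKN2B, the D cyclins CCND1, CCND2 and CCND3, and the p53 target genes MDM2 and GDF15. Total RNA was sequenced from 4 samples given the solvent DMSO for 24 hours and from 4 given lenvatinib for 24 hours, with 1 sample per concentration (40, 60, 80 and 100 µM). All 8 libraries were of the same cell line, and the design text sets out to compare the transcriptomes of drug-treated and parental cells. Each dose was a single library, and nothing in the labels says that the DMSO libraries came from separate cultures. A p-value here thus reflects how far these libraries scatter, and the scatter among the DMSO libraries may be technical only. Where doses were pooled as 1 group, differences between doses count as scatter too.

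Cells leave G1 when D cyclins, bound to CDK4 or CDK6, phosphorylate the retinoblastoma protein RB1 and release the E2F transcription factors. The INK4 inhibitors made by CDKN2A and CDKN2B bind CDK4 and CDK6, whereas the CIP/KIP inhibitors p21 (CDKN1A) and p27 (CDKN1B) act mainly on the CDK2 complexes. The p53 protein switches on CDKN1A, MDM2 and GDF15, and MDM2 in turn marks p53 for destruction, which closes a feedback loop. GDF15, a secreted stress cytokine, is also a target of the integrated stress response through ATF4 and CHOP, and CCND1 is a well-known output of growth factor signalling through ERK.

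Promoter sequence is shown for 3 of the genes to set motifs of their promoters beside their RNA values. RefSeq promoter windows of 300 bases (250 before a start and 50 after it, GRCh38.p14) were held for 7 of the 9 genes, 13 windows in all. Each stretch printed here lies on the gene's own strand, 5′ to 3′. In the MDM2 stretch, chr12:68808872-68809001 on the plus strand, the capitals mark a pair of adjacent p53 half-sites of 10 bases, each with at most 1 mismatch to the consensus and with its central C and G intact. Such a pair was found in 2 of the 4 MDM2 windows, and in 0.157% of the 35116 windows of the table. These 2 MDM2 windows overlap and hold the same pair. In the CDKN1A stretch, chr6:36678528-36678657 on the plus strand, and in the CDKN2B stretch, chr9:22009364-22009493 on the minus strand, the capitals mark GC boxes, GGGCGG on either strand (CCGCCC when read on the other).
MDM2: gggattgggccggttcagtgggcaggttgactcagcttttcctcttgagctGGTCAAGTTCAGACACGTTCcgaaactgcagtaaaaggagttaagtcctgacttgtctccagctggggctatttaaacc
CDKN1A: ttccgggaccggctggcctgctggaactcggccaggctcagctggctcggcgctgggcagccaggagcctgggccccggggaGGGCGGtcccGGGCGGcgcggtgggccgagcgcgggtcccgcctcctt
CDKN2B: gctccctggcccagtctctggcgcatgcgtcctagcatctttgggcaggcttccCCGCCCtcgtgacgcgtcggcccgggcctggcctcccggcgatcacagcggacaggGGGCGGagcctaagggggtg
GC boxes were held by 11 of the 13 member windows, among which those of MDM2 form overlapping pairs, and by 45.0% of all windows. The CDKN1A window held 4 GC boxes, and 9.06% of all windows held 4 or more. No member window held a p53 half-site without a mismatch, which 6.63% of all windows did. The classical p53 sites of CDKN1A lie further upstream than this window reaches, so nothing follows from these letters about p53 at that gene.

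The libraries held 10181973 counts at 60 µM and 30077668 to 37384578 in the other 7, and 11076 genes had a read at 60 µM against 13290 to 14340 elsewhere. The libraries also differed in how strongly a gene's level depended on its base composition. This was expressed as a GC slope, the change in log2 level per 10 percentage points of transcript GC content relative to the mean of the libraries. It was 0.28, -0.50, -0.99 and -0.10 in DMSO 1 to 4, 0.67, 1.82, -0.58 and -0.60 from the lowest lenvatinib dose to the highest, so that 40 and 60 µM lay above every DMSO library and the 2 highest doses within the DMSO range. Of the markers of liver origin, ALB, AFP and APOA1 had 6, 2 and 10 reads at 60 µM and none in the other 7 libraries, HNF4A lay at 8.41 ± 1.23 CPM with DMSO and 1.78 ± 1.11 with lenvatinib (SD, n = 4 each), and the epithelial keratin KRT8 at 5977 ± 2354 and 4975 ± 2848 CPM. The leukocyte gene PTPRC and the fibroblast gene COL1A2 had no read in any library, the endothelial gene PECAM1 4 reads in all, and COL1A1 lay at 26.8 ± 2.37 CPM with DMSO and 35.7 ± 4.92 with lenvatinib.

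Read counts per gene were scaled by the TMM method of edgeR to CPM, the usual depth-scaled unit of read counts, and 8 of the 9 genes passed the filter, an average of at least 1 CPM. CCND2 did not. A limit of 3 counts, what a count of 0 allows, corresponds to between 0.0802 and 0.295 CPM by library total, before TMM scaling. All 8 tested members had more than 3 counts in every library, the fewest being 12 for MDM2 at 60 µM. In bulk RNA, fewer cells that make a transcript and less of it per cell cannot be told apart.

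CDKN1A (ENSG00000124762; GRCh38, chromosome 6, 36676460 to 36687339) encodes p21, the textbook effector of p53-driven arrest. Its level was 179, 46.7, 84.5 and 155 CPM in DMSO 1 to 4, and 173, 390.4, 92.1 and 28.2 CPM at 40, 60, 80 and 100 µM. The lenvatinib series held both the highest and the lowest of the 8 values, and the groups overlapped. The means were 116 ± 61.4 CPM with DMSO and 171 ± 158 with lenvatinib (SD, n = 4 each).

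The pair of highest doses parted most at CDKN1A. Reads numbered 4408 at 80 µM but 1244 at the top dose, which made the former 3.27-fold higher (95% exact interval 3.07 to 3.48, which covers counting error only). Between these libraries 1.18% of the 11827 tested genes were at least 2-fold lower at 100 µM, and the median absolute log2 difference was 0.124. They had nearly the same GC slope, and their difference has no replicate check. The DMSO libraries alone spanned 46.7 to 179 CPM, so a difference of this size also occurred between libraries of 1 group. Those extremes, DMSO 2 and DMSO 1, had unlike GC slopes (-0.50 and 0.28), whereas the slopes at 80 and 100 µM were nearly equal.

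CDKN1B (ENSG00000111276; chromosome 12, 12717124 to 12722371) encodes p27, a brake that is controlled mostly by protein turnover and that SKP2 targets for degradation. It stood at 14.4, 38.5, 47.5 and 23.8 CPM in DMSO 1 to 4 and at 11.5, 6.59, 35.0 and 49.1 CPM from 40 to 100 µM. The order was nearly the mirror image of CDKN1A: low at 40 and 60 µM, high at 80 and 100 µM. The group means of 31.1 ± 14.8 and 25.5 ± 20.03 CPM (SD, n = 4 each) differed by less than either spread.

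CDKN2A (ENSG00000147889; chromosome 9, 21967753 to 21995301, minus strand) encodes both p16, the INK4 inhibitor, and ARF, an antagonist of MDM2, and its row cannot separate these transcripts. Its values were 476, 393, 159.9 and 308 CPM in DMSO 1 to 4, against 365, 520.3, 133 and 154 CPM at 40, 60, 80 and 100 µM. At 80 and 100 µM it lay below all 4 DMSO libraries, DMSO 3 being close to them. The 40 and 60 µM values were inside and above the DMSO range.

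CDKN2B (ENSG00000147883; chromosome 9, 22002903 to 22009363, minus strand) encodes p15, the INK4 inhibitor best known as a target of TGF-beta. It read 8.69, 14.1, 27.2 and 12.8 CPM in DMSO 1 to 4 and 4.70, 4.83, 8.88 and 9.01 CPM from 40 to 100 µM. The 40 and 60 µM libraries lay below every DMSO library, and the 80 and 100 µM libraries just above the lowest of them. How many tested genes lay below DMSO at both 40 and 60 µM was not counted. The mean was 15.7 ± 8.01 CPM with DMSO and 6.85 ± 2.41 with lenvatinib (SD, n = 4 each). The antisense gene CDKN2B-AS1 and the gene AL359922.1 overlap both CDKN2A and CDKN2B on the other strand. Whether the counting used strand is not given in the sources used here, so reads of these partners cannot be told apart from those of the inhibitors.

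CCND1 (ENSG00000110092; chromosome 11, 69641087 to 69654474) encodes cyclin D1, and was the only one of the 8 tested members whose groups did not overlap. Its level was 73.5, 76.7, 121 and 77.9 CPM in DMSO 1 to 4, and 51.4, 32.2, 61.3 and 67.7 CPM at 40, 60, 80 and 100 µM. All 4 lenvatinib libraries lay below all 4 DMSO libraries, as did those of 3.38% of the tested genes. 60 µM was lowest and 100 µM highest among the treated libraries, so the levels were not in dose order. The means were 87.4 ± 22.7 and 53.1 ± 15.5 CPM (SD, n = 4 each), and LTO1 overlaps the gene on the other strand.

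CCND3 (ENSG00000112576; chromosome 6, 41934933 to 42050357, minus strand) encodes cyclin D3. Its level was 757, 386, 273 and 560.0 CPM in DMSO 1 to 4, then 1365 and 1130.4 CPM at 40 and 60 µM, and 309.9 and 331 CPM at 80 and 100 µM. The lower pair of doses lay above every DMSO library, and the upper pair inside the DMSO range. The lenvatinib mean of 784 ± 544 CPM therefore averages unlike libraries (DMSO 494 ± 212 CPM, SD, n = 4 each). The 40 and 60 µM libraries had GC slopes above every DMSO library. The share of all tested genes that lay above DMSO in both of them was not counted.

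CCND2 (ENSG00000118971; chromosome 12, 4273772 to 4305350) encodes cyclin D2 and was close to undetected. It had 9, 4, 9 and 26 reads in DMSO 1 to 4 and 9, 14, 28 and 34 reads at 40, 60, 80 and 100 µM. Scaled, its level was 0.357 ± 0.291 CPM with DMSO and 0.998 ± 0.851 with lenvatinib (SD, n = 4 each), the latter carried by 2.25 CPM from 14 reads in the shallow 60 µM library. The groups overlapped, and no test was made on these counts.

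MDM2 (ENSG00000135679; chromosome 12, 68808176 to 68850686), the ubiquitin ligase that restrains p53, was the most variable tested member. It had 112, 281, 1513 and 148 reads in DMSO 1 to 4, or 4.06, 7.89, 36.3 and 4.40 CPM, and 22, 12, 400 and 731 reads at 40, 60, 80 and 100 µM, or 0.940, 1.93, 8.35 and 16.5 CPM. DMSO 3 was the highest of the 8 libraries and the 40 and 60 µM libraries were the lowest, a pattern whose share among all tested genes was not counted. From 80 to 100 µM it was 1.98-fold higher (95% exact interval 1.75 to 2.24, counting error only), while CDKN1A, the other classical p53 target, was lower. The gene CPM, a carboxypeptidase, overlaps MDM2 on the other strand.

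GDF15 (ENSG00000130513; chromosome 19, 18374731 to 18389176) varied less. It stood at 52.9, 30.7, 19.2 and 39.2 CPM in DMSO 1 to 4 and at 39.9, 68.2, 22.3 and 18.4 CPM from 40 to 100 µM. The highest value was at 60 µM and the lowest at 100 µM, with DMSO 3 close to the latter. The means of 35.5 ± 14.2 and 37.2 ± 22.7 CPM (SD, n = 4 each) differed by less than the spread within either group.

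**Figure D1:**
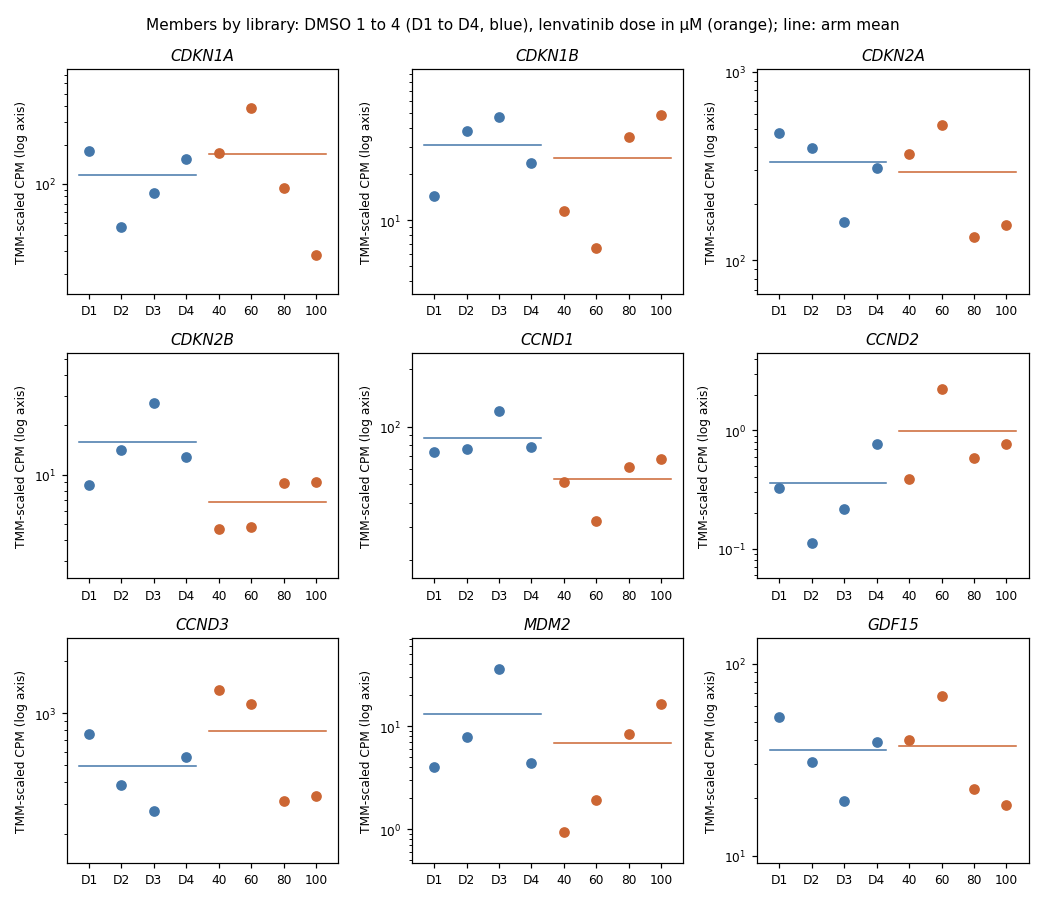
TMM-scaled CPM of the 9 genes (log axes) in DMSO 1 to 4 (D1 to D4, blue points) and at lenvatinib 40, 60, 80 and 100 µM (orange points); horizontal lines are the group means over 4 libraries. CCND1 is the only tested gene with all 4 lenvatinib points below all 4 DMSO points, and in the MDM2 panel DMSO 3 stands at 36.3 CPM above every other library.

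Most of the members' variation ran parallel to the GC slope of the libraries. CCND3, GDF15, CDKN1A and CDKN2A, whose transcripts are GC-rich (56.2, 62.9, 58.1 and 61.4% GC), were higher in libraries with a high slope. CDKN1B, MDM2, CDKN2B and CCND1 (47.7, 41.9, 44.6 and 50.3% GC, the median of tested genes being 49.1%) were lower there. Levels and slopes come from the same libraries, and the part of the slope in each member's level was not tested.

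Across the 8 libraries, CDKN1B had the closest relation, with Pearson's r = -0.97 (exact permutation p = 0.000174, adjusted over the 8 members 0.00139) and Spearman's rho = -0.95 (exact permutation p = 0.00114, adjusted 0.00228). Without the 40 and 60 µM libraries, the farthest from the median slope, its r was -0.95. For CCND3, r was 0.90 (exact permutation p = 0.00146, adjusted 0.00390) and rho 0.95 (exact permutation p = 0.00114, adjusted 0.00228), with r = 0.98 without those libraries. For GDF15, r was 0.89 (exact permutation p = 0.00114, adjusted 0.00390) and rho 0.95 (the same exact permutation p, adjusted 0.00228), with 0.93 without them. These relations held among the 4 DMSO libraries and the 2 highest doses.

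For MDM2, r was -0.83 (exact permutation p = 0.00982, adjusted 0.0149), rho -0.98 (exact permutation p = 0.000397, adjusted 0.00228), and r -0.90 without the 40 and 60 µM libraries. CDKN2A had r = 0.76 (exact permutation p = 0.0238, adjusted 0.0238), rho = 0.79 (exact permutation p = 0.0279, adjusted 0.0319) and r = 0.77 without them. CDKN2B had r = -0.79 (exact permutation p = 0.0194, adjusted 0.0222), rho = -0.79 (exact permutation p = 0.0279, adjusted 0.0319) and r = -0.60 without them. Of these 3 genes, CDKN2B was the one whose r moved closest to 0 in the remaining 6 libraries.

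Like CDKN2B, CDKN1A and CCND1 depended in part on the 40 and 60 µM libraries, CCND1 the most. CDKN1A had r = 0.82 (exact permutation p = 0.0112, adjusted 0.0149) and rho = 0.86 (exact permutation p = 0.0107, adjusted 0.0171), and r = 0.61 without them. CCND1 had r = -0.87 (exact permutation p = 0.00474, adjusted 0.00947), but rho = -0.62 (exact permutation p = 0.115, adjusted 0.115) and r = -0.44 without them, so its relation rests on those libraries. An absolute r of at least 0.8 was found in 6 of the 8 members (75.0%) and in 70.7% of all tested genes, so the members moved with the slope about as often as other genes did. The median absolute r was 0.85 over the tested members and 0.91 over all tested genes. The slopes were computed from the levels of the tested genes themselves, so these permutation p-values do not set the members apart from other genes.

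**Figure D2:**
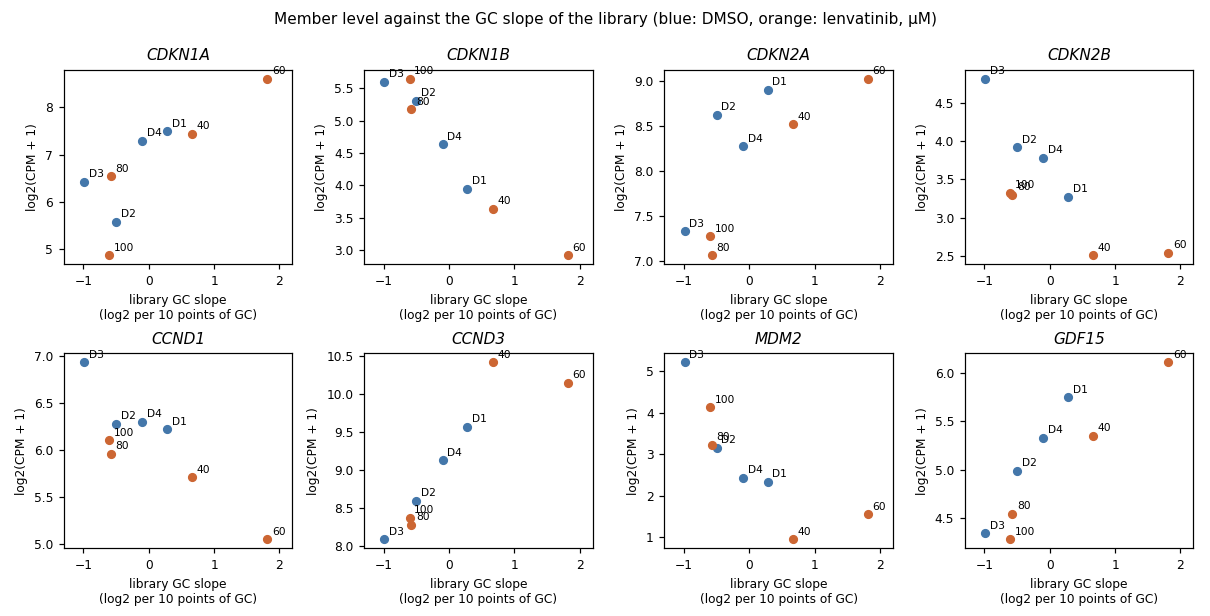
log2(CPM + 1) of each tested member (y) against the GC slope of the library (x, log2 per 10 points of GC) in 4 DMSO libraries (blue, D1 to D4) and the lenvatinib libraries (orange, labelled by dose in µM). CCND3 and GDF15 tend upward and CDKN1B and MDM2 downward with the slope over the 8 libraries, although from 40 to 60 µM CCND3 is lower and MDM2 higher. At 80 and 100 µM, CDKN2A, CDKN2B, CCND1, CCND3 and GDF15 lie under D2, the DMSO library of nearest slope. CDKN1A and CDKN1B have a point on either side of D2, and MDM2 lies above it.

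The first comparison asked how the 4 lenvatinib libraries, pooled as 1 group, differed from the 4 DMSO libraries. CDKN2B, the INK4 inhibitor p15, and CCND1, cyclin D1, had the members' smallest p-values, with log2 fold changes of -1.19 ± 0.48 and -0.72 ± 0.31 (SE). With edgeR's quasi-likelihood test and Benjamini-Hochberg adjustment over all 11827 tested genes, the adjusted p was 0.874 for each, and 0 of the 8 members were called, as were 0 of all tested genes (0.0%). At an unadjusted p under 0.05 stood 2 members, those named, and 523 genes, and DESeq2 called 94 genes but no member. CCND3 had 0.67 ± 0.58, MDM2 -0.91 ± 1.03, CDKN1A 0.55 ± 0.74, CDKN1B -0.28 ± 0.66, CDKN2A -0.19 ± 0.52 and GDF15 0.06 ± 0.49, each with a standard error near or above its size. Without the 60 µM library the fold change of CDKN1A was -0.25, and without DMSO 3 that of MDM2 was 0.36.

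When the GC slope entered this fit as a covariate, 7 of the 8 members were lower on the log2 scale, with a median of -0.50 against -0.06 over all tested genes. CDKN2A had -0.89 ± 0.23 (edgeR adjusted p = 0.0734), GDF15 -0.56 ± 0.14 (0.0752), CCND1 -0.47 ± 0.14 (0.113) and CDKN2B -0.81 ± 0.27 (0.143), and 0 of 8 members passed, where 3.26% of tested genes did. CDKN2A and GDF15 were the members whose values moved from within 1 standard error of 0, in the fit without the covariate, to over 3 below it. The number of genes passing moved with most single libraries: it was 386 with all 8. Leaving out DMSO 1, 2, 3 or 4 gave 27, 66, 203 or 17, respectively, and leaving out 40, 80 or 100 µM gave 1008, 0 or 7. Without 60 µM the same fit called 23.3% of the tested genes, 13.7% lower, among them CDKN2B (-0.84 ± 0.16, adjusted p = 0.00591), GDF15 (-0.52 ± 0.12, 0.0145) and CCND1 (-0.45 ± 0.12, 0.0245). Without the 40 µM library the fit called 8.52% of the tested genes, 5.77% lower, CDKN2A among them (-0.97 ± 0.23, 0.0433).

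The second comparison took the 80 and 100 µM libraries, whose GC slope lay within the DMSO range, against the 4 DMSO libraries. This choice of libraries was made with earlier results of these data known, their GC slopes among them. Without a covariate, 7 of 8 members had a negative log2 fold change, with a median of -0.68 against -0.01 over all tested genes. In the matching fit of all lenvatinib libraries, 5 of 8 were negative, with a median of -0.23 against -0.11. Both comparisons use the same DMSO libraries and the 80 and 100 µM libraries, so they are not independent. The values were -1.19 ± 0.45 for CDKN2A, -0.92 ± 0.69 for CDKN1A, -0.78 ± 0.49 for CDKN2B, -0.77 ± 0.42 for GDF15, -0.59 ± 0.43 for CCND3, -0.41 ± 0.27 for CCND1 and -0.05 ± 0.99 for MDM2, and CDKN1B had 0.47 ± 0.48. In edgeR's quasi-likelihood test none of the 8 and none of all tested genes (0.0%) passed, 0.295 being the smallest adjusted p of any gene. At an unadjusted p under 0.05 stood 1 member, CDKN2A, and 905 genes, and DESeq2 called 284 genes (2.4%) and no member. CCND1 and CDKN2A had both libraries below all 4 DMSO libraries, as 11.4% of tested genes did.

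With the GC slope as covariate, 3 of the 8 members were called lower at 80 and 100 µM: CDKN2B, CCND1 and GDF15. In that fit 11.1% of all tested genes were called lower and 20.9% in either direction. CDKN2B had -0.98 ± 0.15 (edgeR adjusted p = 0.00530), with 8.88 and 9.01 CPM against 8.69 to 27.2 in DMSO. CCND1 had -0.52 ± 0.13 (0.0310), both libraries lying below DMSO, and GDF15 -0.38 ± 0.11 (0.0455). The other brakes and cyclins were not called: CCND3 had -0.18 ± 0.06 (0.0881), CDKN2A -0.85 ± 0.32 (0.157), CDKN1B 0.24 ± 0.17 (0.369), CDKN1A -0.55 ± 0.78 (0.678) and MDM2 -0.15 ± 0.48 (0.862).

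These calls each leaned on single libraries. The CDKN2B call was lost without DMSO 3, where the value was -0.77 (adjusted p = 0.0583), and without 80 µM, where it was -0.98 (0.0508). The CCND1 call was lost without DMSO 3 (-0.24, 0.238), DMSO 4 (-0.53, 0.0674), 80 µM (-0.46, 0.195) and 100 µM (-0.59, 0.0944). The GDF15 call was lost on leaving out any 1 of the 6 libraries, with values from -0.52 to -0.26 and adjusted p up to 0.242. CDKN2A was called lower without DMSO 2 (-0.58, 0.0176), in a fit that called 16.5% of tested genes, 8.4% lower. In each of these fits the direction of CDKN2B, CCND1, GDF15 and CDKN2A was negative, but the number of all genes called also moved, from 2468 to 809 without DMSO 3 and 626 without 80 µM.

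**Figure D3:**
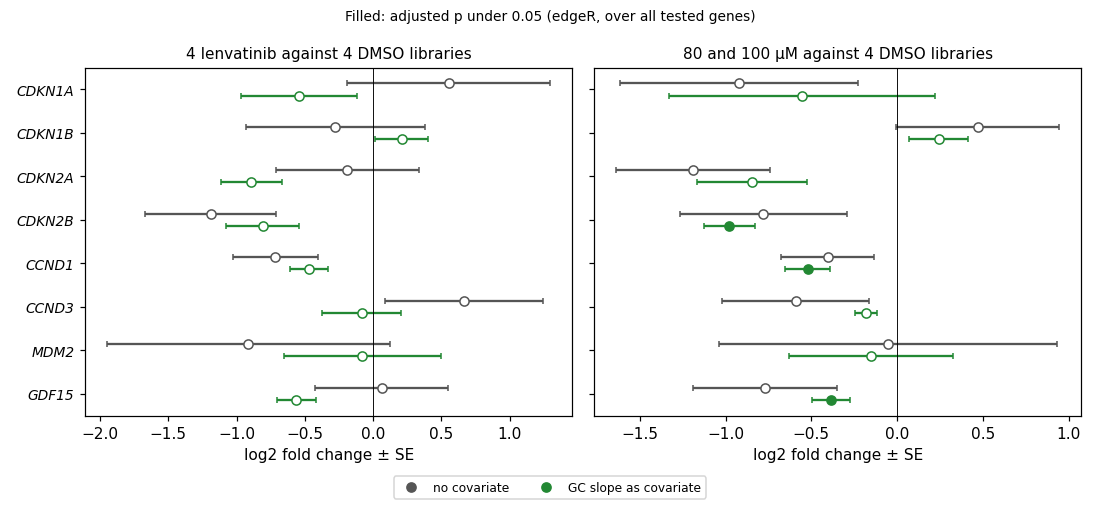
log2 fold change ± SE (x) of the 8 tested members from edgeR for all 4 lenvatinib libraries against 4 DMSO libraries (left) and for 80 and 100 µM against the same DMSO libraries (right), without a covariate (grey) and with the GC slope as covariate (green); filled points passed an adjusted p of 0.05. Filled points are found only for CDKN2B, CCND1 and GDF15, on the right, at -0.98, -0.52 and -0.38.

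A trend over the doses was fitted as the log2 change per 20 µM among the treated libraries. MDM2 had the steepest positive slope, 1.45 ± 0.53, followed by CDKN1B with 0.82 ± 0.31, while CDKN1A had -1.15 ± 0.50 and CCND3 -0.79 ± 0.26. CDKN2A had -0.59 ± 0.30, GDF15 -0.54 ± 0.30, CDKN2B 0.37 ± 0.29 and CCND1 0.19 ± 0.18. In edgeR's test 0 of 8 members and none of all tested genes (0.0%) passed, the smallest adjusted p being 0.295. At an unadjusted p under 0.05 stood 3 members (CCND3, CDKN1B and MDM2) and 875 genes, and DESeq2 called 131 genes and no member. The doses split into 40 and 60 µM, with a high GC slope, and 80 and 100 µM, with a low one, so dose and slope cannot be told apart here. With the slope as covariate MDM2 had 0.57 ± 0.47, CDKN1B 0.22 ± 0.14, CDKN1A -0.38 ± 0.35 and CCND3 -0.39 ± 0.17.

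Levels can be set between genes only per transcript length, for which the deposited TPM values were used. CCND3 made up the bulk of the D cyclin transcripts: 83.6% of the summed TPM of the 3 genes in DMSO 3 and up to 98.7% at 60 µM. CCND1 took from 1.26% at 60 µM to 16.3% in DMSO 3, and CCND2 at most 0.0597%. At 80 and 100 µM, CCND1 held 8.01 and 8.18% of the D cyclin TPM, inside the 4.17 to 16.3% of the DMSO libraries. In TPM, CCND3 stood at 462 ± 76.3 with DMSO and CCND1 at 40.7 ± 22.1 (SD, n = 4). The shares were not adjusted for the GC slope. That of CCND1 was highest in DMSO 3, the library of lowest slope, and lowest at 60 µM, the library of highest slope.

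Among the INK4 pair, CDKN2A took 94.9 to 99.7% of the TPM in all 8 libraries, at 529.8 ± 135 TPM with DMSO and 358 ± 81.9 with lenvatinib (SD, n = 4 each). CDKN2A was thus the most abundant inhibitor transcript of the 4 in every library. Among the CIP/KIP pair, CDKN1A took 60.2 to 93.8% with DMSO, 94.8% at 40 µM, 98.6% at 60 µM and 75.8% at 80 µM. At 100 µM it took 41.4%, the only library in which CDKN1B, at 41.8 TPM, exceeded CDKN1A, at 29.5 TPM. These shares too were not adjusted for the GC slope, and that of CDKN1A was highest at 60 and 40 µM, where the slope was highest. The part of the slope in the shares was not tested.

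**Figure D4:**
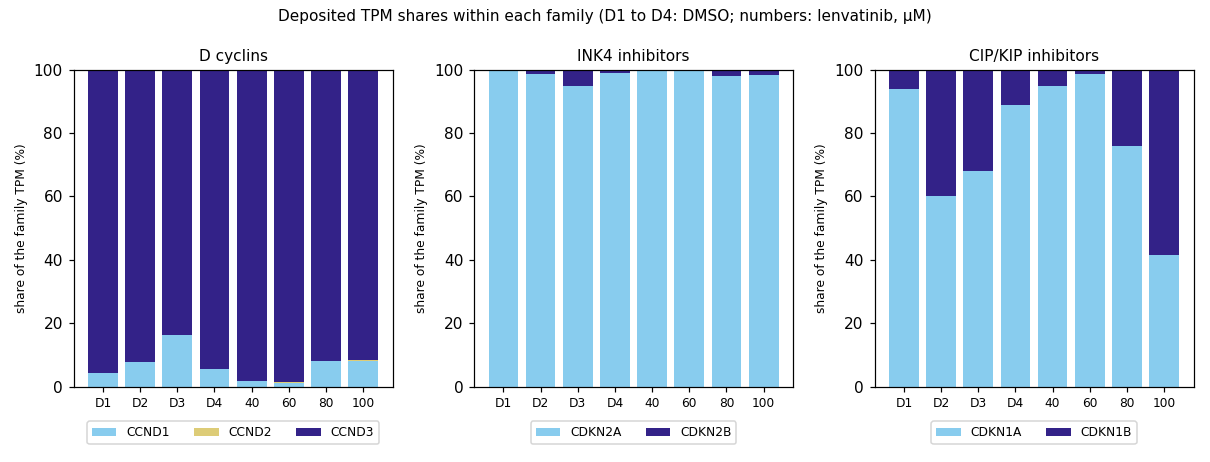
Share of each family's summed deposited TPM (y, percent) by library (x: DMSO 1 to 4, then lenvatinib dose in µM) for the D cyclins, the INK4 inhibitors and the CIP/KIP inhibitors. CCND3 and CDKN2A fill at least 83.6% and 94.9% of their bars, and the 100 µM bar is the only one in which CDKN1B exceeds CDKN1A. The shares are not adjusted for the GC slope.

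The rest of the pathway was read from lists of other genes in the fit of 80 and 100 µM with the GC slope as covariate, against the same background of 20.9% called, 9.76% higher and 11.1% lower. Without the covariate none of these lists had a gene called. Of 25 other CDK inhibitors and RB pathway genes, all tested, 2 were called higher and 3 lower, with a median log2 fold change of 0.05 against 0.00 over all genes. The higher ones were E2F1 (0.61 ± 0.08, edgeR adjusted p = 0.00270) and E2F2 (0.58 ± 0.10, 0.00890), which drive S-phase genes once RB1 lets go of them. The lower ones were CDK6 (-0.42 ± 0.07, 0.00878), the partner of the D cyclins, SKP2 (-0.45 ± 0.09, 0.0138), the ubiquitin ligase subunit that removes p27, and CDKN1C (-0.37 ± 0.10, 0.0318), the third CIP/KIP inhibitor, named after its value was seen. E2F2 lay at 44.8 and 38.005 CPM at 80 and 100 µM, above the DMSO range of 25.4 to 32.0 CPM, and at 55.4 and 62.9 CPM at 40 and 60 µM. All 4 lenvatinib libraries thus lay above DMSO, as in 3.08% of tested genes, whereas E2F1, at 198 and 183 CPM, lay inside its DMSO range of 93.8 to 211 CPM. CDK4 (0.03 ± 0.09, 0.861) and RB1 (0.05 ± 0.12, 0.792) were not called.

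The p53 side gave no single direction. Of 34 other p53 targets, 31 were tested, of which 5 were called higher and 6 lower, with a median of -0.02. Called higher was SESN2, a stress-induced inhibitor of mTORC1 signalling that ATF4 also drives (0.67 ± 0.14, edgeR adjusted p = 0.0165), and called lower was TIGAR, a regulator of glycolysis (-0.45 ± 0.11, 0.0293). BBC3, which encodes the pro-apoptotic protein PUMA (0.34 ± 0.39, 0.592), and CCNG1, cyclin G1 (-0.67 ± 0.56, 0.473), were not called. PMAIP1, which encodes the pro-apoptotic protein NOXA and was named after its value was seen, had 1.05 ± 0.14 (0.00384), with 10.1 and 10.5 CPM at 80 and 100 µM against 2.32 to 7.01 CPM in DMSO. Both libraries lay above all DMSO libraries there, as in 9.9% of tested genes. Of 12 p53 regulators none was called, MDM4, a relative of MDM2, having 0.69 ± 0.34 (0.203). The acetyltransferase gene EP300 had -0.29 ± 0.25 (0.462), the deubiquitinase gene USP7 -0.18 ± 0.09 (0.218), and the checkpoint kinase genes CHEK1 and CHEK2 -0.17 ± 0.11 (0.343) and -0.12 ± 0.11 (0.470). The 8 genes of the ATF4 and CHOP list had 3 called higher: ATF4 (0.90 ± 0.08, 0.00122), ASNS (1.82 ± 0.17, 0.00217) and CHAC1 (1.15 ± 0.29, 0.0308). CEBPB, a bZIP transcription factor gene, had 0.23 ± 0.12 (0.214), DDIT3, which encodes CHOP, had -0.12 ± 0.30 (0.818), and GDF15, a target shared with this pathway, had the -0.38 given above.

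Of 12 proliferation markers, 4 were called lower and none higher, with a median of -0.11. They included RRM2 (-0.30 ± 0.07, edgeR adjusted p = 0.0263) and CCNB1 (-0.30 ± 0.08, 0.0364), and PLK1 and BUB1, named after their values were seen. MKI67, the gene of the Ki-67 antigen, had -0.66 ± 0.20 (0.0709), and MCM5, a subunit of the replicative helicase, 0.07 ± 0.06 (0.438). In these lists the calls of E2F1, PMAIP1, ATF4 and ASNS were kept on leaving out each of the 6 libraries in turn. The call of every other gene of these lists was lost without the 80 µM library, and that of some without others too. With 1 library left out, the adjusted p reached 0.0644 for PLK1, 0.0916 for E2F2, 0.0936 for CDK6, 0.116 for SKP2, 0.130 for RRM2, 0.151 for SESN2, 0.164 for TIGAR, 0.173 for CDKN1C, 0.224 for CCNB1 and 0.261 for CHAC1, the direction being kept. Among the markers of cell identity, HNF4A (-2.72 ± 0.24, 0.00106), KRT8 (-0.83 ± 0.09, 0.00163) and KRT18 (-0.92 ± 0.09, 0.00126) were called lower in the same fit and COL1A1 higher (0.36 ± 0.09, 0.0319). The first 3 calls were kept without each of the 6 libraries, and that of COL1A1 was lost without DMSO 2, DMSO 3, 80 µM or 100 µM (adjusted p up to 0.198). Their part in the members' values was not tested.

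Over all 4 lenvatinib libraries with the covariate, E2F1 (0.56 ± 0.11, edgeR adjusted p = 0.0361) and E2F2 (0.57 ± 0.11, 0.0392) were called higher, with ATF4 (0.81 ± 0.14, 0.0240) and ASNS (1.33 ± 0.28, 0.0451), against a background of 3.26%. Of the 31 p53 targets none was called in that fit, nor any p53 regulator or proliferation marker. Each of these 4 calls was lost without at least 5 of the 8 libraries in turn, ATF4 having adjusted p up to 0.200 and E2F1 up to 0.256.

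**Figure D5:**
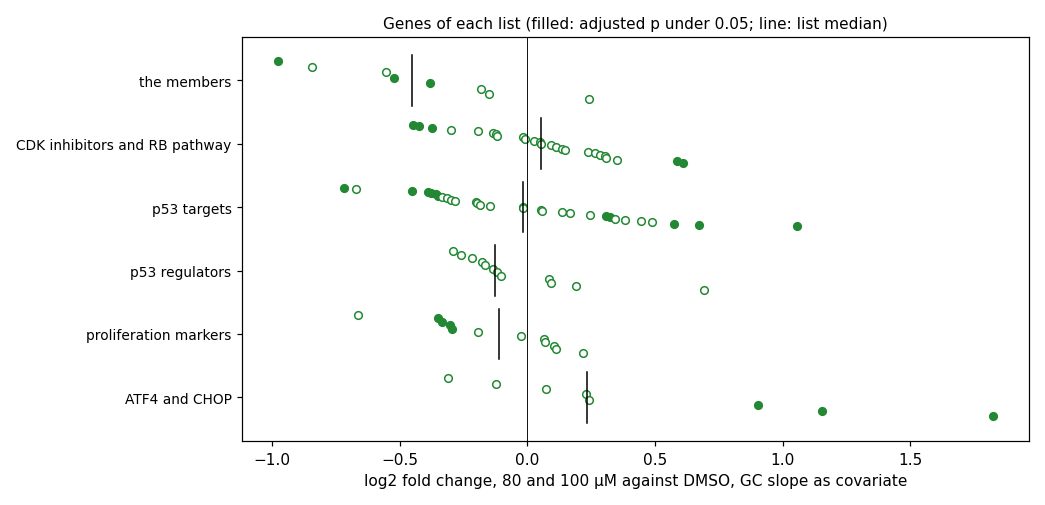
log2 fold change at 80 and 100 µM against DMSO with the GC slope as covariate (x) for each tested gene of 6 lists (rows); filled points passed an adjusted p of 0.05 and vertical bars are list medians. The 9 chosen genes have 3 filled points, all lower, while the p53 targets have 5 filled points to the right and 6 to the left of 0.

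By likeness of pattern, each member was set beside the 2 genes with the highest Pearson correlation of log2(CPM + 1) over the 8 libraries, among the 9441 genes averaging 5 CPM or more. For CDKN1A these were SEC16A (r = 0.96) and RNF135 (0.95), and only these 2 genes reached 0.95. CDKN2B had 8 such genes, led by ALDH1A3 (0.98) and HEG1 (0.97), CDKN2A 41, led by DOK4 (0.98) and VASN (0.97), CCND1 53, led by CREM and AGO2 (both 0.99), and MDM2 78, led by NKTR and SLMAP (both 0.98). The most common patterns belonged to CCND3 with 482 such genes (SLC6A17 and CHCHD1, both 0.99), GDF15 with 647 (LONP1 and SARS2, both 0.99) and CDKN1B with 1280 (MFSD14B and SNRNP27, both 0.99). The 8 points of each gene share their libraries' depth and base composition.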

How the data were processed

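The deposited table gives, per gene and library, read counts, TPM and FPKM. Per the submitters' processing notes, StringTie, HISAT2, FastQC and bedtools were used with GRCh38, in roles and versions not given in the sources used here, and likewise for annotation and strand. Deposited counts were used for all tests and for CPM. The deposited TPM was used only for levels between genes, and the deposited FPKM, a constant multiple of TPM in each library, was not used. The members, the gene lists and the lenvatinib libraries of the second comparison were chosen with earlier results of these data known.

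Genes averaging 1 CPM or more (11827 genes, 99.9% of counts) were tested with edgeR 4.0.16 (limma 3.58.1, R 4.3.3) using TMM factors and robust quasi-likelihood fits. An adjusted p (Benjamini-Hochberg) under 0.05 was a call. The fits without a covariate left 6 (all lenvatinib), 4 (80 and 100 µM) and 5 (dose slope) residual degrees of freedom. The fits with the GC slope as covariate, and those with a library left out, had fewer. DESeq2 1.42.0, other scalings and filters, left-out libraries, a replicate block and a GC slope covariate were alternatives. GC content came from the longest GENCODE transcript of each gene, and the slope used a prior count of 2. The GC covariate with left-out libraries at 80 and 100 µM was added after seeing the data. Whether replicate numbers pair the libraries was not settled. Same-numbered deviations from the group means correlated at 0.77, -0.50, 0.86 and -0.66, but these values also carry the GC slope and the dose. Beyond the chosen genes, each list's genes of smallest p in the comparison of all lenvatinib libraries (at most 4) were named, with MDM4, CDK4, CDK6, RB1, E2F1, MKI67, ATF4 and DDIT3 in any case; 1 other gene of this rule is not reported here. The edgeR fits without a covariate were tested on simulated counts with a fixed spread and no GC trend. The fits with the GC covariate were not tested in this way.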

Additional observations from a re-analysis of the deposited data

Results flagged for a closer look

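In groups of 4 libraries, 2 member values stood far from the other 3 by Dixon's test at its 95% critical value, out of 16 gene-and-group sets examined, where chance flags about 1 in 20. Both belong to DMSO 3, the library with the lowest GC slope: CCND1 at 121 CPM and MDM2 at 36.3 CPM. Without DMSO 3, the log2 fold change of CCND1 at 80 and 100 µM was -0.20 rather than -0.41, and that of MDM2 was 1.22 rather than -0.05. The part of the GC slope in these values was not tested.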

How the results depend on the processing

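Without the GC slope as covariate, edgeR called no gene in any of the 3 comparisons under other scalings, filters or left-out libraries. DESeq2 called 94 genes with all lenvatinib libraries, 284 at 80 and 100 µM and 131 for the dose slope. The replicate block called 0 and 17 genes in the first 2 comparisons, and whether the numbers pair the libraries was not settled. With the GC covariate 386 genes were called with all lenvatinib libraries and 2468 at 80 and 100 µM. On leaving out single libraries in that fit these counts ran from 0 (without 80 µM) to 2755 (without 60 µM), and from 626 (without 80 µM) to 2367 (809 without DMSO 3, 1252 without 100 µM). Scaling by library totals moved the all-gene median (log2) from -0.01 to 0.17 at 80 and 100 µM and from 0.06 to 0.36 for the dose slope.

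Where a member's sign changed the value was not called, except for GDF15 with the GC covariate and without 60 µM (-0.52, adjusted p = 0.0145). With all lenvatinib libraries, the GC covariate gave -0.0845 for CCND3, -0.54 for CDKN1A, 0.21 for CDKN1B and -0.56 for GDF15, and GDF15 had -0.22 with library totals and -0.0390 with the replicate block. For the dose slope the covariate gave -0.0838 for CCND1, -0.00245 for CDKN2B and 0.00539 for GDF15. Over left-out libraries, with and without the covariate, the values with all lenvatinib libraries ran from -0.37 to 0.95 for CCND3, -1.14 to 0.91 for CDKN1A, -0.81 to 0.33 for CDKN1B, -0.97 to 0.0520 for CDKN2A, -0.68 to 0.32 for GDF15 and -1.80 to 0.36 for MDM2. At 80 and 100 µM they ran from -2.02 to 0.37 for CDKN1A, -0.0207 to 0.75 for CDKN1B and -0.68 to 1.22 for MDM2. Signs did not change for CCND1 and CDKN2B in either comparison. The cause of these moves was not tested. Depth limited CCND2, with 4 to 34 reads, and MDM2 at 60 µM, with 12.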

Other observations

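The deposited TPM and counts of a gene can be set against each other as TPM per count, scaled by the median over genes of the same library. Over the tested genes with at least 10 counts in every library, its highest value over its lowest had a median of 1.16. For MDM2 the ratio was 6.06, highest at 40 µM and lowest in DMSO 3, a span exceeded by 0.265% of 8692 genes. The other 7 tested members had spans of 1.07 to 1.35. In TPM, MDM2 stood at 0.826 at 40 µM and 0.258 at 60 µM, although its CPM was lower at 40 µM, at 0.940, than at 60 µM, at 1.93.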
